A study of Mus musculus with 6 samples.

Results

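The Hox genes are the homeobox genes of the Hoxa, Hoxb, Hoxc and Hoxd clusters. They were taken here as every gene symbol made of Hox, a cluster letter from a to d and a paralogue number. The rule found 39 genes among 23352 gene symbols, and each was listed on a single line in all 6 libraries. Their levels were given as FPKM, fragments per kilobase of transcript scaled to the mapped reads of the library, a scale that is corrected for transcript length and so allows one gene to be set beside another.

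The RNA came from stromal cells sorted from the omentum of wild-type (WT) C57BL/6 mice, with 1 library for each of 6 populations. P1, P2 and P3 were CD45-CD140a+CD105+ cells with high, intermediate and low aldehyde dehydrogenase (ALDH) activity. P4 and P5 were CD45-CD140a+CD105- cells with intermediate and low ALDH activity, and P6 held CD45- CD140a-low cells that were ALDH positive. These libraries were made to describe the omental stromal cells that express Aldh1a2, a gene for retinoic acid synthesis. The study went on to the part of these cells in recruiting lymphocytes to the lymphoid clusters of the omentum. No population had a replicate library, so no difference below carries a test, and the intervals cover counting error only. A population is a sorted mixture. Fewer cells that use a gene and less RNA of it per cell cannot be told apart in these libraries.

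Hox genes encode homeodomain transcription factors. Within a cluster they lie in the order of their paralogue numbers, and that order follows the body axis in the embryo: low numbers are used from the hindbrain and neck onwards, central numbers in the trunk, and the highest numbers in the lumbar and sacral region, the limbs and the genital tubercle. Fibroblasts and other connective tissue cells of adult organs are known to keep the Hox pattern of the body region they come from. Retinoic acid is known to switch on the low-numbered genes in the embryo. Axial position itself was not measured in these libraries.

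The checks on the libraries touch every comparison below. The gate genes followed the gates: Pdgfra, which encodes CD140a, was at 117 to 154 FPKM in P1 to P5 and at 5.36 in P6, and Eng, which encodes CD105, was at 42.6 to 52.4 FPKM in P1 to P3 and at most 0.728 in the others. Estimated depth was 53200000 to 61700000 reads in P1 to P5 and 36900000 in P6. Mesothelial markers set the populations apart, with a sum over 11 measured genes of 73.1, 95.9 and 148 FPKM in P1 to P3, 935 and 757 in P4 and P5, and 3023 in P6. Pancreatic acinar genes summed to 4.34, 241, 24.3, 1293, 154 and 1894 FPKM in P1 to P6. Among the other lists, 4 of 6 adipocyte genes (Adipoq at 14.7 FPKM) and Csf1r, 1 of 7 leukocyte genes (11.6 FPKM), were at least 2 times higher in P6 than in any other population. Of all genes tested, 6.25% were. Adipoq, Cfd and Retn reached 1 FPKM in P6 only, so they had to be highest there. Fabp4, the highest gene of the adipocyte list by mean level, was at 141 to 349 FPKM in P1 to P5 and 179 in P6. The 8 endothelial genes summed to 9.90 to 30.1 FPKM in P1 to P5 and 112 in P6. Kdr (46.9 FPKM), Esam (62.0) and Egfl7 (1.54) were at least 2 times higher in P6 than elsewhere and Tek was lower, at 22.7 FPKM in P1 and 0.224 in P6. Pecam1 and Cdh5 stayed below 1 FPKM everywhere, and the leukocyte marker Ptprc was at most 0.755 FPKM.

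Omental stroma used low and central Hox genes, most of them from the Hoxa and Hoxb clusters. In all, 17 of 39 Hox genes reached 1 FPKM in some population and 14 did so in all 6. By population the count was 15 in P1 and 16 in each of P2 to P6, which is 38.5% to 41.0% of the family beside 48.6% to 51.6% of all symbols. The Hoxa cluster (mm10, chromosome 6, 52155590 to 52260880) gave 7 of its 11 genes and the Hoxb cluster (chromosome 11, 96194316 to 96368256) gave 7 of its 10. The Hoxc cluster (chromosome 15, 102921103 to 103036852) gave 2 of 9, Hoxc4 and Hoxc5, and the Hoxd cluster (chromosome 2, 74668310 to 74765142) gave 1 of 9, Hoxd8. By paralogue number, 5 of 8 genes numbered 1 to 3 reached 1 FPKM, 12 of 15 numbered 4 to 8, and 0 of 16 numbered 9 to 13.

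**Figure D1:**
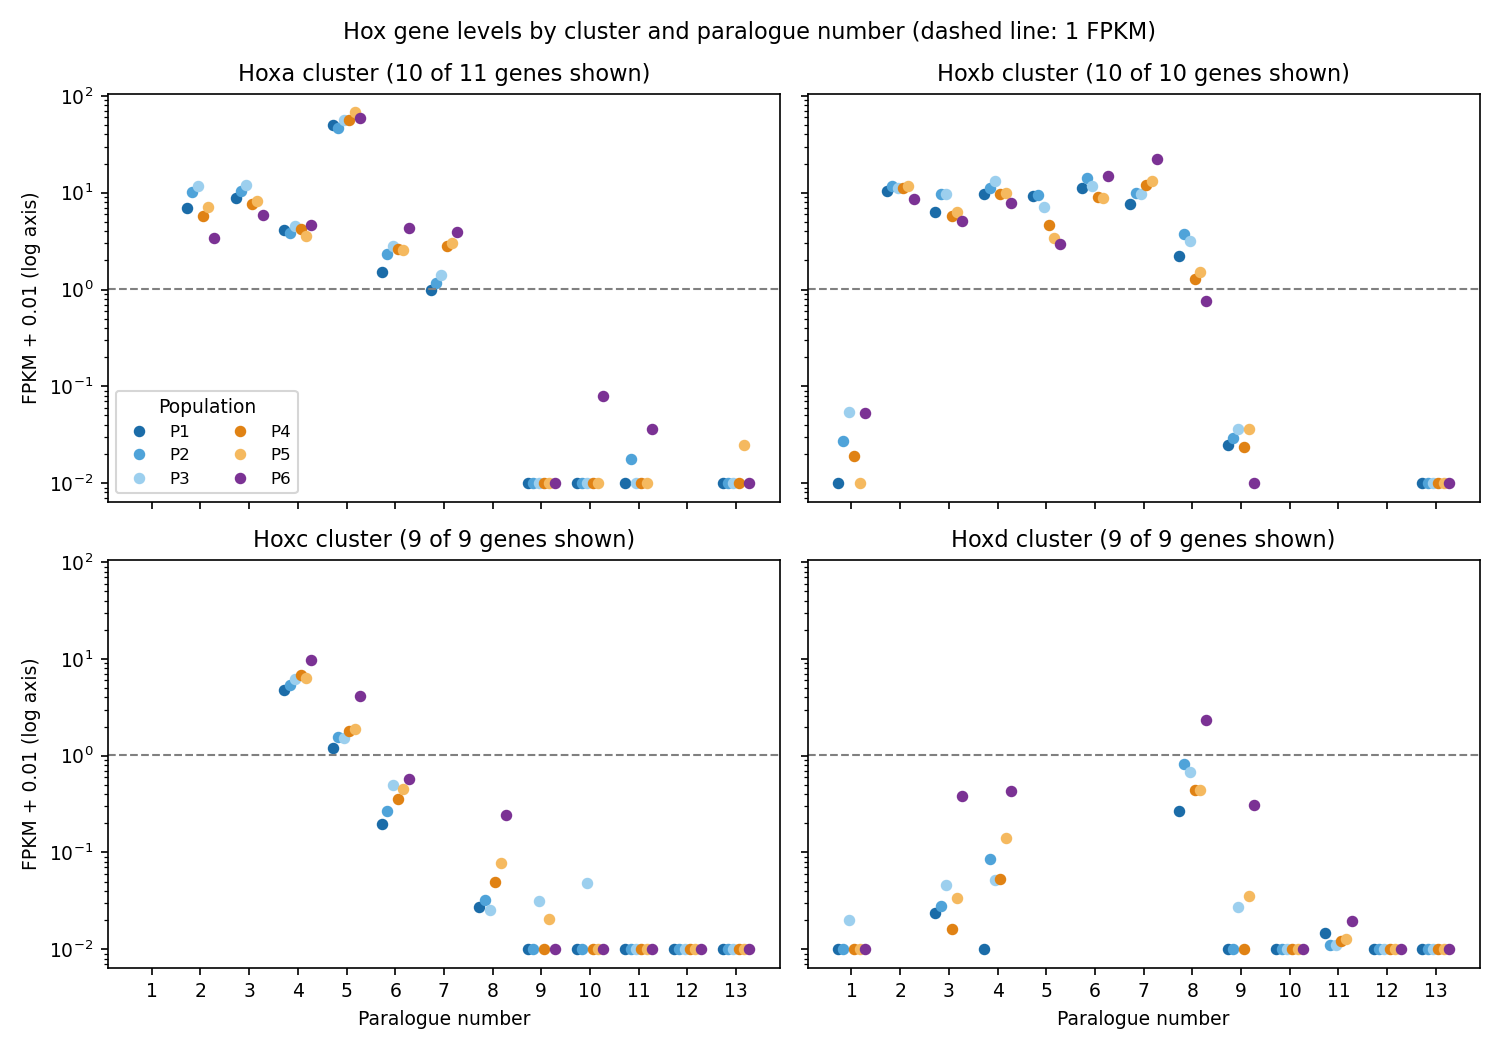
Levels of 38 of the 39 Hox genes in the 6 populations, as FPKM plus 0.01 on a log axis, against paralogue number with 1 panel for each cluster; each point is 1 library and points at the bottom are listed at 0. Points above the dashed line at 1 FPKM end at paralogue 7 in Hoxa, 8 in Hoxb and 5 in Hoxc, and in Hoxd only Hoxd8 in P6 lies above it.

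The change along the Hoxa and Hoxb clusters was abrupt. In the Hoxa cluster Hoxa7 was at 0.973 to 3.92 FPKM, and its neighbour Hoxa9 was listed at 0 in all 6 libraries. In the Hoxb cluster Hoxb8 was at 0.752 to 3.73 FPKM, and Hoxb9 was at most 0.0264. The annotated starts of Hoxb8 and Hoxb9 are 10.4 kb apart (GENCODE M21). The Hoxc cluster declined in steps rather than at 1 gene, from Hoxc4 (4.78 to 9.83 FPKM) over Hoxc5 (1.20 to 4.17) and Hoxc6 (0.188 to 0.564) to Hoxc8 (0.0152 to 0.237).

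The promoter windows of 4 genes are printed because they bracket this pattern: Hoxa5 was the highest of the family, Hoxa7 and Hoxb8 were the last genes used in their clusters, and Hoxa9 was the first gene listed at 0. Each runs from 250 bases before to 50 bases after a RefSeq transcript start (GRCm38.p6, the mm10 build), 5′ to 3′ on the gene's strand, so it holds upstream sequence and the first bases of that transcript. For Hoxa7 that start lies 1068 bases upstream of the GENCODE M21 start (52217505), which its window does not reach, and for the other 3 both starts are the same. Capitals mark 4 short motifs searched on both strands, the TATA box TATAAA, the CCAAT box CCAAT, the caudal-type site TTTATG and the HOX-PBX site TGATNNAT, any of which may overlap another.
Hoxa5, chr6:52204538-52204837, minus strand: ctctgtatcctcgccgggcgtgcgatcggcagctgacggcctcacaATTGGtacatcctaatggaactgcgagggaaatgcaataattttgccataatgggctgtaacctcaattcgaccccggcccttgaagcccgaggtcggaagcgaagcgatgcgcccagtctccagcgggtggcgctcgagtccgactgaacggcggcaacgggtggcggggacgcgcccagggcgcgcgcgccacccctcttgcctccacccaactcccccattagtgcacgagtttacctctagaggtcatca
Hoxa7, chr6:52218524-52218823, minus strand: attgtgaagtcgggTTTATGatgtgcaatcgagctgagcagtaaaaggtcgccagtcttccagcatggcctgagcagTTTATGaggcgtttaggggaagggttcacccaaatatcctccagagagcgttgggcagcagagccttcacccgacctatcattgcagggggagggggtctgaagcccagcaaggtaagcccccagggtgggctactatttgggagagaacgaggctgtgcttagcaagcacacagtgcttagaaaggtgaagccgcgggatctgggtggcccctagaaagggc
Hoxa9, chr6:52227321-52227620, minus strand: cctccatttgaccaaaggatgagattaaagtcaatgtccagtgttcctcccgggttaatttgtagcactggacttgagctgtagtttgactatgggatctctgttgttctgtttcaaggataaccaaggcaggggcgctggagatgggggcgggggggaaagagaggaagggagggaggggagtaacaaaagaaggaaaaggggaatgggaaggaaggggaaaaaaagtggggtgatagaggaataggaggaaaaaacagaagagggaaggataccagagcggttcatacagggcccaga
Hoxb8, chr11:96281655-96281954, plus strand: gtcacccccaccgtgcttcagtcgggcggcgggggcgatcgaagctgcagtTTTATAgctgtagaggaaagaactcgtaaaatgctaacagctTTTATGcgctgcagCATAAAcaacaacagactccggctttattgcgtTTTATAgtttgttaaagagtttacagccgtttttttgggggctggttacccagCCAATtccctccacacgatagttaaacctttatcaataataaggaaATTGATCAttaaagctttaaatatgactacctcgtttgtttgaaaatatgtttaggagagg

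The 4 windows differed in what they held. Hoxb8 held 6 matches and every one of the 4 motifs, Hoxa7 held 2 matches, both to TTTATG, Hoxa5 held 1, to CCAAT, and Hoxa9 held none. GC content was 61.7% for Hoxa5, 55.7% for Hoxa7, 49.7% for Hoxa9 and 42.3% for Hoxb8. Among 24 RefSeq windows matched to 22 Hox genes, CCAAT was found in 15 (62.5%) beside 37.4% of 32851 windows of all genes. TATAAA was in 4 (16.7% beside 13.6%), TTTATG in 5 (20.8% beside 11.9%) and TGATNNAT in 4 (16.7% beside 8.85%). Median GC content was 57.7% for the Hox windows and 52.7% for all. It was 58.0% in the 9 windows of genes that reached 1 FPKM and 57.3% in the 15 windows of genes that did not. These matches are descriptions of the windows and say nothing of binding.

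The genes numbered 1 to 3 act in the hindbrain, neck and pharyngeal arches of the embryo, and 5 of them were at 1 FPKM or more in every population. Hoxa2, the selector gene of the second pharyngeal arch, was at 6.99, 10.1, 11.8, 5.74, 7.05 and 3.42 FPKM in P1 to P6, highest in P3 and lowest in P6. Hoxa3, needed for thymus and parathyroid formation, was at 8.84, 10.4, 12.1, 7.60, 8.18 and 5.84 FPKM. Hoxb2 was at 10.4, 11.8, 11.3, 11.2, 11.8 and 8.67 FPKM, and Hoxb3 at 6.39, 9.72, 9.59, 5.78, 6.38 and 5.05. P6 was the lowest library for each of these 4. Hoxb2 was nearly level across P1 to P5, where its highest value was 1.14 times its lowest. Exons of Hoxb3 share 52.9% of their bases with the antisense gene Hoxb3os, and those of Hoxb2 share 27.3%. The library kit does not mark strand, so reads of the antisense gene cannot be told apart there. Hoxb1, Hoxd1 and Hoxd3 were near 0, with Hoxb1 at most 0.0439, Hoxd1 at most 0.00991 and Hoxd3 at most 0.370 FPKM.

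Among the genes numbered 4 to 8, which pattern the neck and thorax, Hoxa5 stood far above the rest. Hoxa5, needed for lung and thoracic development, was at 49.9, 46.7, 55.9, 56.2, 68.2 and 59.7 FPKM in P1 to P6. It made up 30.1% to 42.5% of the summed Hox level of a library and lay above 94.1% to 95.8% of all symbols. The next highest value of any Hox gene was Hoxb7 in P6, at 22.2 FPKM.

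The remaining Hoxa genes of this class ran lower. Hoxa4 was at 4.07, 3.78, 4.54, 4.23, 3.52 and 4.60 FPKM, and Hoxa6 at 1.51, 2.34, 2.82, 2.64, 2.54 and 4.29. Hoxa7 was at 0.973, 1.16, 1.41, 2.78, 3.02 and 3.92 FPKM. Hoxa4 was thus level across populations, while Hoxa6 had its lowest value in P1 and its highest in P6. Hoxa7 fell into 3 separate ranges, with P1 to P3 below P4 and P5 and those below P6. Exons of Hoxa7 share 20.4% of their bases with the antisense gene Hoxaas3.

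The Hoxb genes of the class differed in where they were highest. Hoxb4, a gene also known for its part in blood stem cells, was at 9.72, 11.1, 13.4, 9.74, 9.98 and 7.90 FPKM. Hoxb5, known for its part in the enteric nervous system, was at 9.24, 9.40, 7.15, 4.64, 3.39 and 2.92 FPKM, so that all CD105+ values were above all others. Hoxb6 was at 11.3, 14.1, 11.8, 9.03, 8.85 and 15.0 FPKM, highest in P6 and lowest in the CD105- populations P4 and P5. Hoxb7 was at 7.64, 9.93, 9.59, 12.1, 13.1 and 22.2 FPKM, and Hoxb8 at 2.23, 3.73, 3.14, 1.28, 1.52 and 0.752. These neighbours went in opposite directions: Hoxb7 was highest and Hoxb8 lowest in P6, and P4 and P5 lay between P6 and the CD105+ populations for both.

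From the Hoxc and Hoxd clusters 3 genes reached 1 FPKM. Hoxc4 was at 4.78, 5.38, 6.25, 6.89, 6.42 and 9.83 FPKM, and Hoxc5 at 1.20, 1.56, 1.53, 1.79, 1.87 and 4.17. Hoxd8 was at 0.260, 0.808, 0.673, 0.432, 0.437 and 2.32 FPKM and passed 1 FPKM in P6 only. All 3 had their highest value in P6, which for Hoxd8 follows from its passing the minimum there only. The exons of Hoxc5 and Hoxc10 overlap on the same strand over 166 bases, 5.37% of those of Hoxc5, and Hoxc10 itself was at most 0.0385 FPKM.

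The other 22 genes stayed below 1 FPKM in every library. They were Hoxb1, Hoxd1, Hoxd3, Hoxd4, Hoxc6, Hoxc8 and all 16 genes numbered 9 to 13. Of these, 8 were listed at 0 in all 6 libraries, each numbered 9 or more. A listed 0 in these files can be a failed estimate: 13 of 18932 protein-coding symbols were at 0 in a library and at 10 FPKM or more in another, and these included Col3a1, Fn1 and Gsn, although 0 of 15 housekeeping genes was at 0. The highest value among the genes numbered 9 to 13 was that of Hoxd9 in P6, at 0.299 FPKM from an estimated 21.3 reads. Hoxd3, Hoxd4 and Hoxc8 were likewise highest in P6, at 0.370, 0.424 and 0.237 FPKM, beside at most 0.0366, 0.130 and 0.0671 in P1 to P5. Exons of Hoxd3 and Hoxd4 overlap, so part of their reads may be shared. Gm28230, a gene on the same strand that has no listed value, shares 53.1% of the exon bases of Hoxd3. It shares 39.1% of those of Hoxd4, so its reads may be counted in both.

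The sum over all Hox genes differed little between populations, at 139, 155, 168, 145, 161 and 164 FPKM in P1 to P6. Its make-up differed more. Genes numbered 1 to 3 gave 25.7%, 28.9% and 29.4% of the sum in P1 to P3, 22.7% and 23.1% in P4 and P5, and 15.3% in P6. Genes numbered 4 to 8 gave 70.5% to 77.3% in P1 to P5 and 84.5% in P6, and those numbered 9 to 13 gave at most 0.246%. With Hoxa5 left out, the share of numbers 1 to 3 was 40.1%, 41.4%, 44.0%, 37.0% and 40.1% in P1 to P5 and 23.98% in P6. P6 was lowest either way, and without Hoxa5 the shares of P1 and P5 were alike. These shares do not depend on how the libraries are scaled to each other by a single factor.

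**Figure D2:**
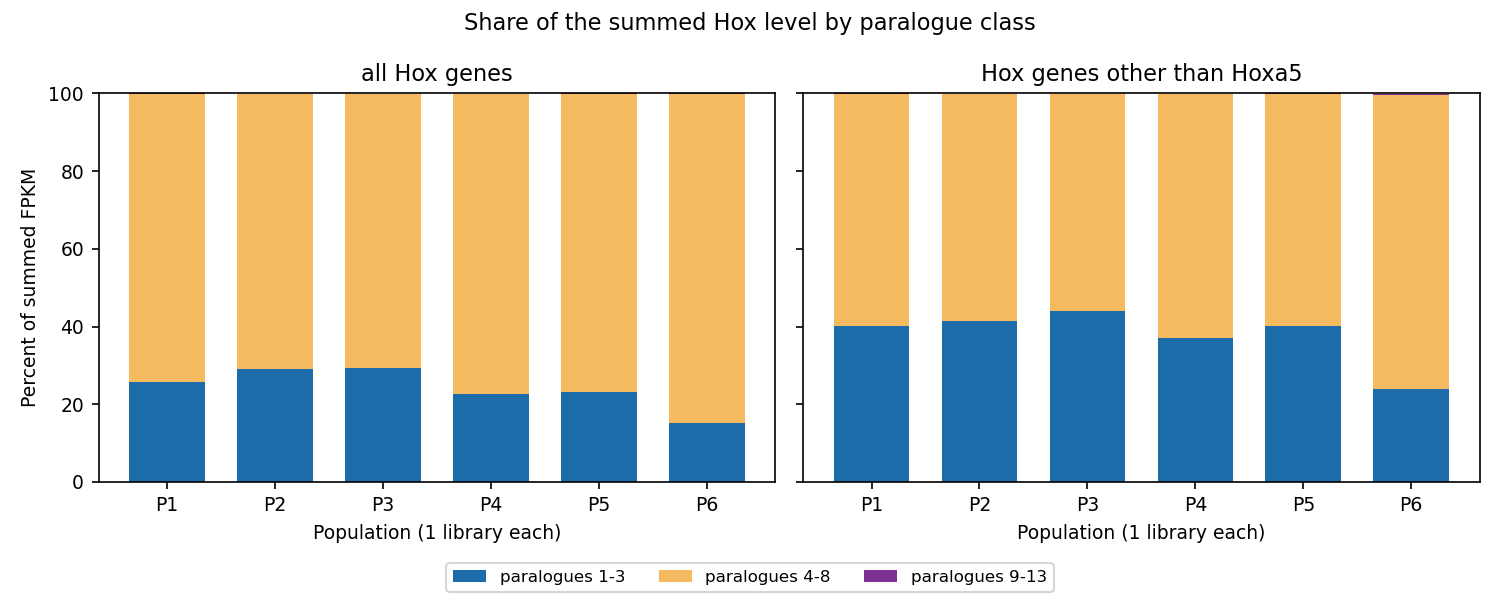
Percent of the summed Hox FPKM that came from genes numbered 1 to 3, 4 to 8 and 9 to 13 in each population (1 library each), with all Hox genes on the left and without Hoxa5 on the right. Genes numbered 1 to 3 made up 15.3% of the sum in P6 and 22.7% to 29.4% in P1 to P5, and the class 9 to 13 is at most a thin line at the top.

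By cluster, Hoxa gave 49.8% to 59.8% of the sum and Hoxb 34.3% to 44.9%. Hoxc gave 4.46% to 6.24% in P1 to P5 and 9.004% in P6. Hoxd gave 0.201% to 0.581% in P1 to P5 and 2.08% in P6.

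P6, the CD140a-low population, stood at 1 end of the order for nearly every Hox gene that reached 1 FPKM. Hoxd8 reached it in P6 only, so it had to be highest there and is left out of the counts that follow. Among the 16 genes at 1 FPKM or more in some of P1 to P5, P6 was above all of P1 to P5 for 7 (Hoxa4, Hoxa6, Hoxa7, Hoxb6, Hoxb7, Hoxc4 and Hoxc5) and below all of them for 8 (among them Hoxa2, Hoxa3, Hoxb2, Hoxb3, Hoxb4, Hoxb5 and Hoxb8). Only Hoxa5 lay within their range. That is 7 of 16 (43.8%) above and 8 of 16 below, beside 35.5% and 26.5% among all 12461 genes that passed the same minimum (37.7% and 25.6% with the minimum taken over all 6 libraries). The 95% counting interval of the ratio to the nearest other population left out 1 for 5 of the 7 above, all but Hoxa4 and Hoxb6, and for 7 of the 8 below, all but Hoxb5. When the libraries were scaled by the median of ratios, by Gapdh or to equal quantiles, Hoxa4 and Hoxb6 were no longer above all others, and with Gapdh Hoxb5 was no longer below. The other 5 above and 7 below kept their place under each of the 4 scalings tried. The shares of all genes moved as well, here with the minimum over all 6 libraries. They were 42.0% above and 21.8% below with equal FPKM sums, and 29.9% and 33.8% with the median of ratios. With Gapdh they were 28.0% and 19.9%, and with quantiles 30.2% and 33.7%. The shares of 35.5% and 26.5% hold for the deposited scale only.

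**Figure D3:**
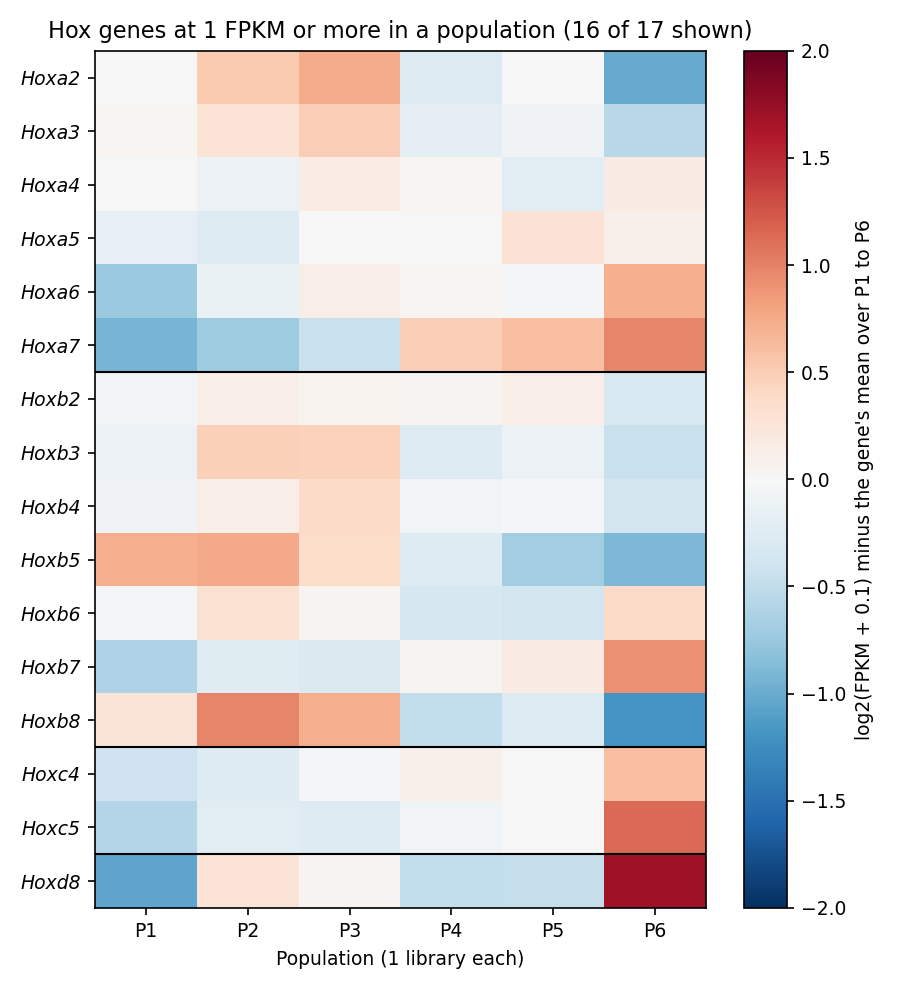
Level of 16 of the 17 Hox genes that reached 1 FPKM in some population, as log2(FPKM + 0.1) minus the gene's own mean over the 6 libraries, with genes in rows by cluster and paralogue number and populations in columns. In P6 the upper rows of Hoxa and most rows of Hoxb are blue (lower), and Hoxa6, Hoxa7, Hoxb7, Hoxc4, Hoxc5 and Hoxd8 are red (higher).

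Few of these differences reached 2-fold against every other population. Among the 16 genes Hoxc5 did so upwards (6.25%), beside 3.89% of all genes with the same minimum, and 0 did so downwards, beside 4.80%. The call for Hoxc5 was lost with quantile scaling. With the minimum taken over all 6 libraries Hoxd8 was called too, where 6.25% of 12904 genes were called higher and 4.63% lower. Hoxc5 in P6 was 2.23 times its next highest value, in P5 (95% counting interval 1.93 to 2.58), and Hoxd8 was 2.87 times its next highest, in P2 (2.17 to 3.80). Hoxb7 was 1.69 times its level in P5 (1.54 to 1.85). In the other direction P5 or P4 was the nearest library for most genes. Hoxb8 was 1.71 times higher in P4 than in P6 (1.29 to 2.26) and Hoxa2 1.68 times (1.43 to 1.98).

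The direction in P6 went with paralogue number in the Hoxa cluster. On the log2(FPKM + 0.1) scale, P6 minus the mean of P1 to P5 was -1.21 for Hoxa2 and -0.66 for Hoxa3. It was 0.19 for Hoxa4, 0.12 for Hoxa5, 0.86 for Hoxa6 and 1.17 for Hoxa7. Spearman's rho between paralogue number and this difference was 0.94 over these 6 neighbouring genes of 1 cluster, given as a description since all values come from the same 6 libraries. Over the 7 Hoxb genes it was -0.07. There the differences were -0.38 for Hoxb2, -0.54 for Hoxb3, -0.43 for Hoxb4, -1.08 for Hoxb5, 0.46 for Hoxb6 and 1.10 for Hoxb7, followed by -1.43 for Hoxb8. Hoxc4 and Hoxc5 were at 0.73 and 1.35, and Hoxd8 was at 2.03. The median over the 16 Hox genes without Hoxd8 was -0.13 and that over all genes with the same minimum 0.07, and with Hoxd8 it was 0.12.

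**Figure D4:**
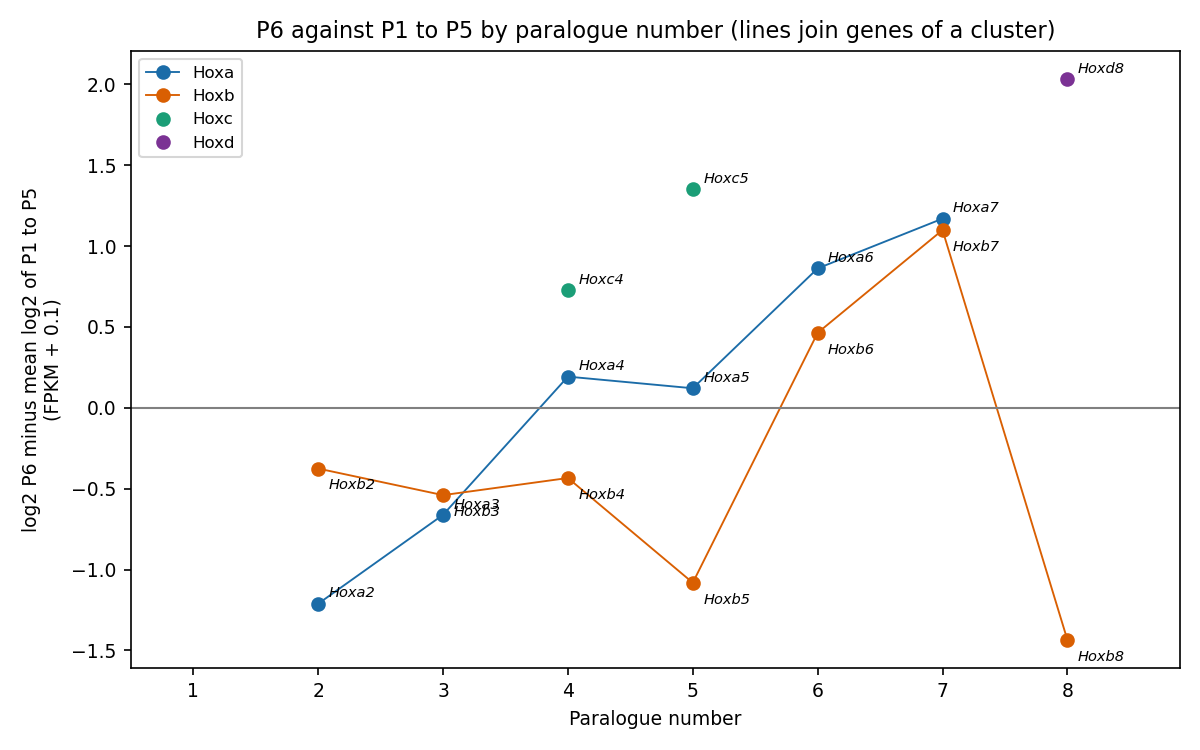
Difference between P6 and the mean of P1 to P5 on the log2(FPKM + 0.1) scale against paralogue number for 16 of the 17 Hox genes, coloured by cluster, with lines joining genes of the Hoxa and of the Hoxb cluster. All 4 genes numbered 2 or 3 lie below 0 and all 4 genes numbered 6 or 7 lie above it, while Hoxb8 (-1.43) and Hoxd8 (2.03) lie at opposite ends.

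Genes with the same number did not always move alike. The 5 genes numbered 1 to 3 that reached 1 FPKM were all lower in P6, with a median of -0.66. Hoxd3, below that level, was higher in P6, at 0.370 beside at most 0.0366 FPKM. Its reads cannot be told from those of Gm28230 across 53.1% of its exon bases. The 11 genes numbered 4 to 8, without Hoxd8, had a median of 0.46 with 7 above and 3 below all others. Both genes numbered 6 and both numbered 7 were higher. The 3 genes numbered 5 were split, with Hoxa5 at 0.12, Hoxb5 at -1.08 and Hoxc5 at 1.35.

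Several other genes moved with this comparison. In P6, 9 of 11 measured mesothelial markers were at least 2 times above every other population, among them Upk3b at 1140 FPKM beside 6.78 to 383, and Msln at 171 beside 0.127 to 6.86, while Cdh1 was at 0 in P1 and P3 and at most 0.0729 FPKM elsewhere. Kdr and Esam, named above, were highest in P6 as well, at most 3.30 and 15.1 FPKM elsewhere. The acinar sum was highest in P6, then P4. Their part in the Hox differences of P6 was not tested.

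CD105 divides P1 to P3 from P4 and P5. Of the 16 Hox genes at 1 FPKM or more in some of those 5 libraries, 5 were higher in all CD105+ than in all CD105- populations (Hoxa3, Hoxb3, Hoxb5, Hoxb6 and Hoxb8), 5 were lower (Hoxa5, Hoxa7, Hoxb7, Hoxc4 and Hoxc5) and 6 overlapped. That is 31.2% in each direction, beside 18.0% higher and 37.9% lower among all 12461 genes tested. Hoxb5, Hoxb6, Hoxb8 and Hoxa3 stayed above and Hoxa7 stayed below under all 4 scalings. The differences of Hoxa5, Hoxb7, Hoxc4 and Hoxc5 turned positive when Gapdh was the reference, which moved the median of all genes from -0.11 to 0.41. The split of 5 higher and 5 lower became 4 and 4 with equal FPKM sums, 8 and 3 with the median of ratios or quantiles, and 11 and 1 with Gapdh. The median of all genes was -0.10 with equal sums, 0.004 with the median of ratios, 0.02 with quantiles and 0.41 with Gapdh. The shares of all genes above hold for the deposited scale only, so the changed splits are not read as a Hox result.

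At 2-fold without overlap, Hoxb5 and Hoxb8 were higher in the CD105+ populations, 2 of 16 (12.5%) beside 5.17% of all genes, and Hoxa7 was lower, 1 of 16 beside 7.06%. The differences between the means, on the log2(FPKM + 0.1) scale, were 1.09 for Hoxb5, 1.04 for Hoxb8 and -1.24 for Hoxa7, where the median of all genes was -0.11. The call for Hoxb8 was lost when P2, P3 or P4 was left out in turn, with 1 gene then called higher, and that for Hoxb5 was lost without P5. The call for Hoxa7 was lost with Gapdh as the reference.

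Both pairs matched for ALDH activity gave the same 3 genes on the deposited scale. Between P2 and P4, with intermediate activity, Hoxb5 was 2.03 times higher in P2 (95% counting interval 1.81 to 2.26), Hoxb8 was 2.91 times higher (2.46 to 3.44) and Hoxa7 was 2.40 times higher in P4 (1.95 to 2.96). Between P3 and P5, with low activity, Hoxb5 was 2.11 times higher in P3 (1.86 to 2.40), Hoxb8 was 2.07 times higher (1.77 to 2.43) and Hoxa7 was 2.14 times higher in P5 (1.77 to 2.59). These 3 of 16 genes (18.8%) stood beside 12.5% of genes past 2-fold between P2 and P4 and 13.6% between P3 and P5. Of these calls, Hoxa7 between P3 and P5 was lost with the median of ratios, Hoxb8 between P3 and P5 with quantiles, and Hoxa7 in both pairs with Gapdh, and Hoxb5 was called in both pairs under all 4 scalings. The pairs share no library. In 13 of 16 Hox genes (81.2%) the sign of the difference was the same in both pairs, beside 82.9% of all genes tested, and the exceptions were Hoxa4, Hoxa6 and Hoxb2.

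**Figure D5:**
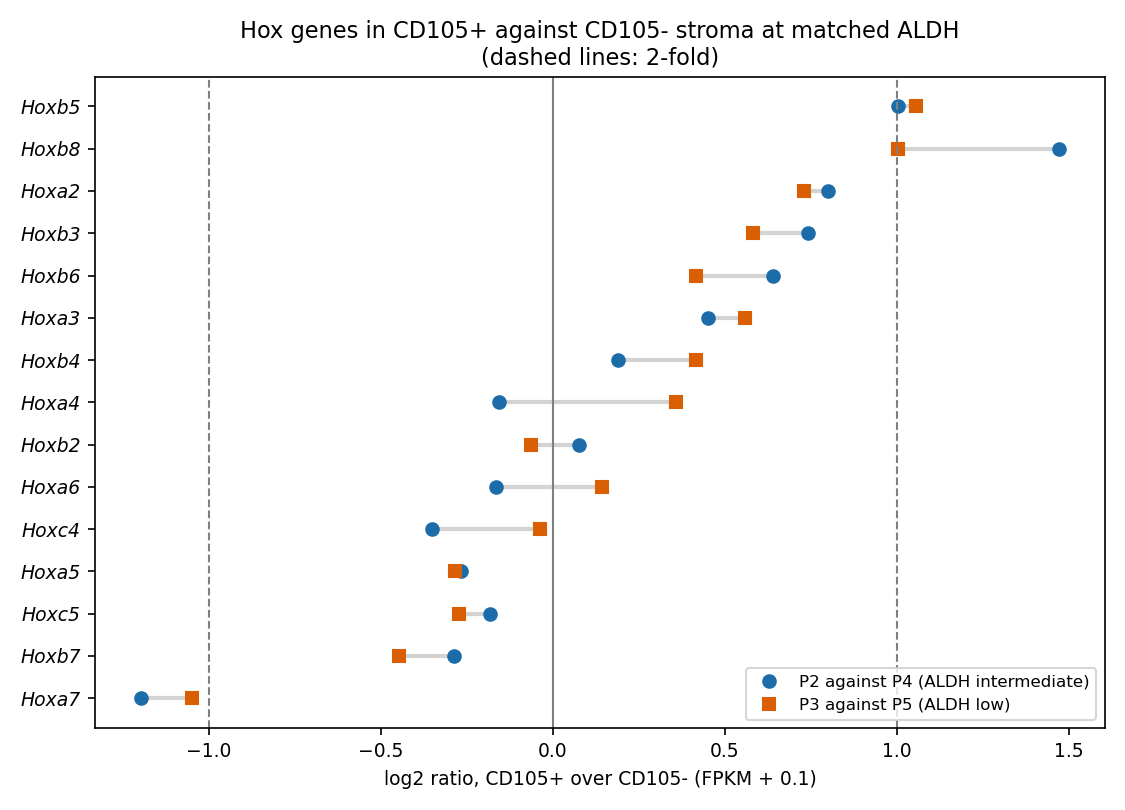
Log2 ratio of CD105+ over CD105- stroma on the FPKM + 0.1 scale for 15 of the 16 Hox genes, with circles for P2 against P4 (intermediate ALDH) and squares for P3 against P5 (low ALDH); each symbol compares 1 library with 1 other. Hoxb5 and Hoxb8 reach the right dashed line at 2-fold in both pairs and Hoxa7 lies beyond the left one, and the other 12 genes lie between the lines.

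P1 and P4, both high in Aldh1a2, differed at 2-fold in Hoxa7 alone, which was 2.86 times higher in P4 (2.26 to 3.60), beside 14.2% of all genes. With Gapdh the genes called were Hoxb5 and Hoxb8 instead. Hoxb5 just missed the 2-fold line there, at 1.99 times higher in P1 (1.78 to 2.23), and Hoxb8 was 1.73 times higher in P1 (1.44 to 2.09). In the CD105- populations 10 of 11 mesothelial markers were at least 2 times higher without overlap. Kdr and Esam were at most 1.17 FPKM in P1 to P3 and at 1.46 to 15.1 in P4 and P5. They are 2 of 8 endothelial genes, and the others leaned the other way. Of those, Tek was at 22.7, 8.76, 6.41, 11.3 and 2.84 FPKM in P1 to P5, and the rest stayed below 1 FPKM there. The acinar sum was 1293 FPKM in P4 beside 241 in P2, but 154 in P5, and 0 of 12 acinar genes was called. The part of cells with any of these markers in the CD105 differences was not tested. Between P4 and P5, where the acinar sum was 1293 and 154 FPKM, 0 of 16 Hox genes differed 2-fold, beside 5.37% of all genes. At a share this low, 0 of 16 says nothing of the part of the acinar genes, which was not tested.

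Differences between ALDH gates at a fixed CD105 state were not all smaller than those across CD105. Over the 17 Hox genes, the median absolute log2 difference was 0.45 between P1 and P3, with high and low activity. It was 0.35 between P2 and P4 and 0.42 between P3 and P5. Over all genes these pairs were at 0.23, 0.23 and 0.25. For neighbouring gates, 16 Hox genes were at 1 FPKM or more in a library of the pair. Of these, 0 passed 2-fold between P1 and P2, P2 and P3, or P4 and P5, beside 5.19%, 3.66% and 5.37% of all genes. At shares this low, 0 of 16 does not set the Hox genes apart. All genes likewise passed 2-fold less often here than between P2 and P4 (12.5%) or P3 and P5 (13.6%). Hoxd8, below 1 FPKM in both, was 3.10 times higher in P2 than in P1 (1.93 to 5.004). Aldh1a2, the enzyme that makes retinoic acid, was at 469, 78.8, 134, 285 and 145 FPKM in P1 to P5, and its part in the differences that follow was not tested. The P1 level was 0.694 times the P2 level for Hoxa2 (0.626 to 0.769), 0.847 times for Hoxa3 (0.785 to 0.915), 0.878 times for Hoxb2 (0.800 to 0.963) and 0.657 times for Hoxb3 (0.602 to 0.716). On the deposited scale, these were the 4 that were lower in P1 by more than counting error, of the 5 genes numbered 1 to 3 at 1 FPKM or more. The decrease in P1 was not limited to these numbers. Hoxb8 was at 0.596 times its P2 level (0.517 to 0.687), Hoxa6 at 0.642 (0.460 to 0.896) and Hoxb4 at 0.874 (0.812 to 0.941). Hoxb6 was at 0.798 times (0.724 to 0.881), Hoxb7 at 0.769 (0.682 to 0.867) and Hoxc5 at 0.767 (0.633 to 0.930). Hoxa5 went the other way, at 1.07 times its P2 level (1.03 to 1.11). On the log2(FPKM + 0.1) scale the median of P1 minus P2 was -0.23 over 16 Hox genes and -0.05 over all genes with the same minimum. The share of all genes lower in P1 by more than counting error is not given here. With the median of ratios P1 moved up by 0.13 (log2) and P2 by 0.04, so the sizes of these decreases hold for the deposited scale only. Hoxb5 was 1.31 times higher in P2 than in P3 (1.19 to 1.45) and 1.37 times higher in P4 than in P5 (1.19 to 1.57).

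Over P1 to P5 together, 15 Hox genes were at 1 FPKM or more in all 5 libraries. Their ratio of the highest to the lowest library had a median of 1.59, from 1.14 for Hoxb2 to 2.91 for Hoxb8, beside 1.37 over 10828 genes. With all 17 genes, the median absolute log2 difference between 2 libraries was lowest between P4 and P5 (0.11) and highest between P3 and P6 (1.04). Over all genes those pairs were at 0.16 and 0.38.

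Among the partners of Hox proteins on DNA, all but Pbx4 were at 1 FPKM or more in every population. These partners, the TALE homeodomain cofactors of the PBX, MEIS, PKNOX and TGIF families, bind DNA beside Hox proteins or compete for their sites. All 11 measured genes reached 1 FPKM in some population. Among the highest were Meis1 (14.3 to 30.1 FPKM) and Meis2 (13.9 to 20.4). Pbx4 was the 1 member past 2-fold, at 0.718, 0.636, 0.417, 1.504, 1.21 and 4.46 FPKM in P1 to P6, higher in P6 (1 of 11, beside 6.25% of all genes) and lower in the CD105+ populations (beside 7.06%). The median difference of the list was -0.18 for P6 and -0.05 for CD105.

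Of 12 measured upstream regulators of Hox clusters 9 reached 1 FPKM. Of these 9, 0 passed 2-fold in P6, beside 6.25% of all genes higher and 4.63% lower, and 3 were higher in the CD105+ populations, beside 5.17%, among them Egr2, a regulator of hindbrain Hox genes, and Gdf11, a ligand that sets posterior identity. Egr2 was at 20.8 to 21.4 FPKM in P1 to P3, 9.67 and 7.26 in P4 and P5, and 11.3 in P6. The retinoic acid receptors Rarg (25.0 to 44.4 FPKM), Rxra (13.1 to 24.9) and Rara (8.30 to 20.1) were the highest of the list. Cdx1, Cdx2 and Cdx4, the caudal-type genes, were listed at 0 in all libraries, and they are named here because of those values. None of 18 polycomb and 11 trithorax genes measured passed 2-fold in either comparison. Of all genes tested, 6.25% were higher and 4.63% lower in P6, and 5.17% higher and 7.06% lower in the CD105+ populations. At such shares, 0 in lists this short does not set them apart. Their medians were 0.26 and 0.15 for P6, beside 0.09 over all genes, and -0.20 and -0.25 for CD105, beside -0.11. Polycomb proteins are known to keep unused Hox genes silent, and trithorax proteins to keep used ones active.

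Genes beside the clusters and noncoding genes within them were looked at too. Of 14 measured flanking genes, Skap2, beside the Hoxa cluster, was at 24.1, 22.1, 30.3, 51.6, 62.0 and 80.2 FPKM, and lower in the CD105+ populations past 2-fold. Ttll6, beyond Hoxb13, was at 1.47 FPKM in P6 and at most 0.0269 elsewhere. Of 8 measured noncoding genes in the clusters 7 were listed at 0 in all libraries. Mir10a, between Hoxb4 and Hoxb5, was at 23.0 FPKM in P2 and listed at 0 in the others, and FPKM of so short a gene rests on few reads.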

How the data were processed

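Sorted omental stromal populations P1 to P6 were profiled by RNA sequencing, 1 library each, with single-end reads of 76 nt and a kit that does not mark strand. The values were deposited by the authors as FPKM per gene. Per the submitters' processing notes, TopHat2 2.0.7 and Cufflinks 2.1.1 were used with mm10. The annotation, the filters and any pooling of mice are not given in the sources used here.

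Each library had 23847 lines and 23352 symbols. Lines that share a symbol (495, none of them a Hox gene) were summed. Genes at 1 FPKM or more in a library of the comparison were compared by size (called tested). Log2 differences and calls used FPKM plus 0.1, while printed ratios and their intervals are of FPKM as listed. A gene was called at 2-fold: against each of P1 to P5 for P6, and without overlap for CD105. With 1 library per population no significance test was possible, and FPKM keep no measured depth. Depth was estimated from steps in low FPKM values (52.9% to 57.1% of these came out whole within 0.05 reads), and it gave reads per gene and 95% counting intervals. Python 3.11.15, numpy 2.4.6, pandas 2.3.3 and scipy 1.17.1 were used.

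The Hox genes and all gene lists were chosen with earlier results of these data known. Every Hox gene that reached 1 FPKM was to be named; 1 of them, and 2 genes of other lists, are not reported here beyond their part in counts, sums and medians. From other lists, genes called in P6 or CD105 and the 3 highest by mean FPKM could be named. Scaling, row handling, pseudocount, fold, minimum FPKM and left-out populations were varied.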

Additional observations from a re-analysis of the deposited data

How the results depend on the processing

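Each population had 1 library, so the spread between animals is unknown and every call is one of size. No paired analysis was possible because no population has a second library with a number to match. Relative to the deposited scale, the median gene shifted by 0.13 (log2) in P1 and -0.11 in P6 with median of ratios, by 0.26 in P1 and -0.35 in P5 with Gapdh, and by 0.15 in P1 and -0.09 in P6 with quantiles. A total of 226 recomputed summary values kept close to the reported ones and 56 did not; of the values for single genes, 391 did and 12 moved. The cause of these shifts was not tested, except where the setting itself tests fewer or more genes.

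With a minimum of 5 FPKM, 9, 10, 10, 9, 9 and 8 Hox genes were detected in P1 to P6. Quantile scaling put the share of genes numbered 1 to 3 in P6 at 14.4%. For P6, 2 Hox genes (Hoxc5 and Hoxd8) were called higher with the minimum over all 6 libraries. The number was 1 with the minimum over P1 to P5, a choice made after seeing the data, 1 with quantiles, 0 with a pseudocount of 1, 4 at 1.5-fold, 0 at 3-fold, 6 with no minimum FPKM and 0 with a minimum of 5 FPKM. The number called lower was 3 at 1.5-fold and 1 (Hoxa2) without P4. P6 was above all others for 16 genes with no minimum and for 3 with a minimum of 5 FPKM. For CD105, 0 genes were called higher with a pseudocount of 1 or at 3-fold, 1 with a minimum of 5 FPKM and 1 without P2, P3, P4 or P5. The number called lower was 0 with Gapdh, with a pseudocount of 1, at 3-fold and with a minimum of 5 FPKM. At 1.5-fold 3 genes differed between P1 and P2 and 1 between P2 and P3, and with no minimum 1 (Hoxd8) differed between P1 and P2. Between P2 and P4 the count was 5 with Gapdh, 1 with a pseudocount of 1, 6 at 1.5-fold, 0 at 3-fold and 1 with a minimum of 5 FPKM. Between P3 and P5 it was 5 with Gapdh, 0 with a pseudocount of 1, 0 at 3-fold and 1 with a minimum of 5 FPKM. Between P1 and P4 it was 2 with median of ratios, 2 with Gapdh, 3 with quantiles, 0 with a pseudocount of 1, 5 at 1.5-fold, 0 at 3-fold and 0 with a minimum of 5 FPKM. Over the cofactor, noncoding, flanking, upstream, polycomb, trithorax and positional lists together, 3 genes were called higher in P6, beside 6.25% of all genes tested. Of these, Ttll6 reached 1 FPKM in P6 only. The count was 7 at 1.5-fold, 1 at 3-fold and 1 with a minimum of 5 FPKM. The 7 genes called lower, beside 4.63% of all genes tested, were all positional factors outside the Hox clusters. Their number over these lists was 11 with median of ratios, 11 with quantiles and 4 with a pseudocount of 1. It was 12 at 1.5-fold and 4 with a minimum of 5 FPKM.

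The sign reversed for Hoxa4 in P6 with quantiles (-0.0032) and, with Gapdh, in CD105+ against CD105- for Hoxa5 (0.23), Hoxb7 (0.034), Hoxc4 (0.23) and Hoxc5 (0.15).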

Other observations

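Other transcription factors that mark body position outside the Hox clusters were also measured. Of 31 such genes, 16 reached 1 FPKM, and their median difference in P6 was -1.33 on the log2(FPKM + 0.1) scale, beside 0.09 over all genes tested. In P6, 7 of the 16 were at least 2 times below every other population, beside 4.63% of all genes tested, and 1 was above, beside 6.25%. Tcf21, a factor of visceral mesenchyme, was at 177, 141, 119, 72.8, 29.0 and 2.74 FPKM in P1 to P6. Prrx1 and Prrx2, factors of limb and craniofacial mesenchyme, were at 3.20 and 4.69 FPKM in P6 beside 29.3 to 52.7 and 21.7 to 30.6 in P1 to P5. Tlx1, needed for spleen formation, was at 1.03, 3.91, 3.33, 0.308 and 0.407 FPKM in P1 to P5 and listed at 0 in P6. Tbx4, known from the hindlimb and the lung mesenchyme, ran the other way, at 0.0881, 0.0528, 1.06, 1.99, 2.58 and 7.05 FPKM.

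Across CD105, 8 of these 16 genes were higher in the CD105+ populations (Tbx3, Nkx3-2, Tlx1, Tcf21, Foxf2, Msx1, Six2 and Alx4), beside 5.17% of all genes tested, and 2 were lower (Tbx4 and Wt1), beside 7.06%. Nkx3-2, known from the spleen and the gut mesenchyme, was at 13.1, 12.8, 10.6, 6.56, 3.26 and 5.45 FPKM. Wt1, a factor of mesothelium, was the highest of the list by mean level, at 50.3, 79.2, 106, 149, 197 and 211 FPKM. Barx1, a factor of stomach mesenchyme, was next, at 91.2 to 161 FPKM, and passed 2-fold in neither comparison.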
